A study of Selaginella nipponica with 6 samples.

Results

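Stable unigenes are those whose share of the counts was nearly the same in every library of both types of shoots of *Selaginella nipponica*. They were chosen by their own values. A unigene, the longest assembled transcript of a gene, was taken if it had at least 50 CPM in each of the 6 libraries and if its highest CPM was less than 25% above its lowest, and the 150 unigenes with the highest mean CPM were left out. CPM is the rounded count as a scaled share of all counts of the library, with no correction for transcript length. Of the 206768 unigenes in the table, 197 met the rule. As the rule used every library and the contrast between the shoots, the values of these 197 are given as a description and no test is read from them.

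*Selaginella nipponica* is a spikemoss, a lycophyte, with early shoots that creep and later shoots that stand upright and bear sporangia. The 3 libraries of the erect shoots included the sporangia and the 3 libraries of the prostrate shoots included emerging roots. All plants grew wild, untreated, in a single natural population, and the replicates of a type of shoot were subsamples of the harvested material, so spreads and p-values measure differences among subsamples. RNA with poly(A) tails was sequenced from both ends, and totals were between 18001138 and 20243960 counts in the erect libraries and between 15679144 and 17584114 in the prostrate libraries.

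Measurements of transcripts by RT-qPCR are expressed relative to a reference transcript that should keep its level in all samples compared. Transcripts for actin, tubulin, ubiquitin, elongation factors and other parts of the basic machinery of the cell are common choices in plants, although their levels can change with organ and stage. A shoot that makes spores and a shoot that makes roots differ in their mixtures of cells, so a level that is even between such shoots is an average over different tissues. In bulk samples like these, fewer cells of a type and less RNA per cell cannot be told apart. The study used an actin gene as the reference in its RT-qPCR. The files do not pair identifiers with gene names or sequences, so the stable unigenes are given by identifier, with no function and no sequence, and the tissues could not be checked against marker genes by name.

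A level of at least 50 CPM in each library was found for 3257 unigenes, of which 3120 were outside the 150 most abundant. The 197 stable unigenes were 6.31% of these 3120. The median ratio of highest to lowest CPM was 1.196 among the stable unigenes and 1.73 among the 2923 others of the same range of levels. Within the stable set, 5 unigenes had a ratio under 1.1 and 92 were at 1.2 or more. Just inside the limit were DN100281_c2_g1, DN98292_c0_g1 and DN104947_c0_g1 with ratios of 1.249, 1.249 and 1.248, and just outside it were DN106359_c1_g1, DN100759_c0_g2 and DN104976_c0_g5 with ratios of 1.2504, 1.2507 and 1.2510.

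**Figure D1:**
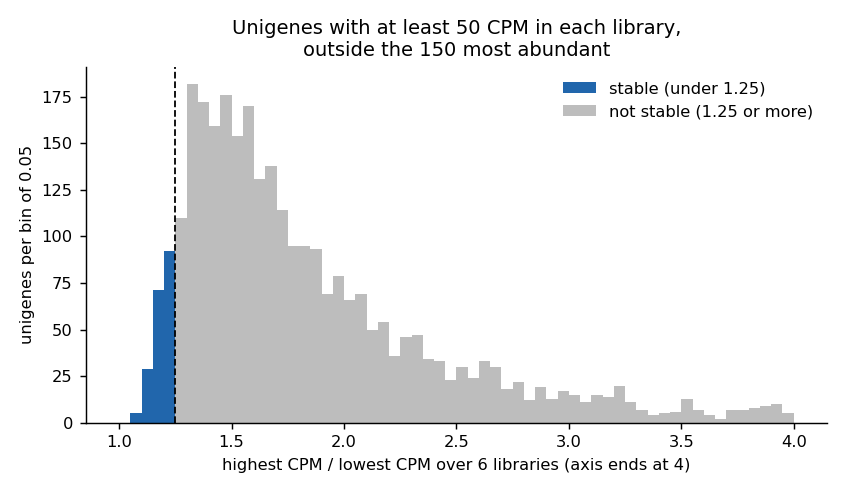
Number of unigenes (vertical axis) by the ratio of highest to lowest CPM over the 6 libraries (horizontal axis, no unit), for the 3120 unigenes with at least 50 CPM in each library outside the 150 most abundant. The 197 stable unigenes, left of the dashed line at the limit, are the low end of the distribution, and 130 unigenes with a ratio above 4 lie beyond the axis.

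The floor of 50 CPM in each library placed every stable unigene among the more abundant of the table. Their mean CPM was between 56.1 and 478, with a median of 107 and quartiles of 76.0 and 165. Ordered by mean CPM over the whole table they held ranks from 222 to 4315. The share of stable unigenes was 7.33% of the 600 unigenes with a mean of 75 to 100 CPM, 5.56% of the 1366 with 100 to 200 CPM, 3.72% of the 780 with 200 to 500 CPM and none of the 53 above that. Below 75 CPM the share was 14.95% of 321, but there the floor of 50 CPM in each library itself keeps the range narrow. At the floor, DN101353_c0_g1 was just inside with a lowest CPM of 50.5, and DN98988_c1_g1 was just outside with a lowest CPM of 49.4 and a ratio of 1.241. Among the 150 most abundant unigenes, left out by the rule, 5 (3.33%) also stayed within the limit. DN103436_c2_g1 was the most even of these, with 614, 589 and 585 CPM in the erect libraries and 559, 590 and 643 CPM in the prostrate libraries.

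DN103310_c1_g1 had the smallest ratio of the set. It had 98.0, 97.7 and 102 CPM in erect replicates 1, 2 and 3 and 104, 99.9 and 103 CPM in prostrate replicates 1, 2 and 3, a ratio of 1.06. The libraries of both types of shoots overlapped. DN106094_c6_g1 followed with 116, 109 and 117 CPM in the erect libraries and 112, 112 and 108 CPM in the prostrate libraries, a ratio of 1.08. DN98157_c0_g1 was rarer, with 66.8, 65.0 and 67.4 CPM in the erect libraries and 61.8, 62.1 and 65.9 CPM in the prostrate libraries. Its ratio was 1.09, and prostrate replicate 3 lay within the erect libraries while the other prostrate libraries lay below them. DN105423_c0_g1 had 115, 125 and 123 CPM in the erect libraries and 115, 119 and 125 CPM in the prostrate libraries, and DN104720_c0_g1 had 214, 231 and 210 CPM in the erect libraries and 215, 224 and 223 CPM in the prostrate libraries. DN98530_c0_g1 had 122, 116 and 117 CPM in the erect libraries and 121, 126 and 127 CPM in the prostrate libraries. For these last 3 the ratios were 1.09, 1.099 and 1.101, and in each of them the shoots overlapped.

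Among the stable unigenes with the highest means, the ratios lay on both sides of the median of the set, 1.196. They were 1.104 in DN98967_c0_g1 and 1.163 in DN102043_c0_g1, against 1.205 in DN103036_c0_g1 and 1.249 in DN98292_c0_g1. The unigenes described before them were picked for small ratios, so their spreads are not compared. DN98967_c0_g1 had the highest mean of the set, with 469, 500 and 474 CPM in the erect libraries and 483, 489 and 453 CPM in the prostrate libraries, a ratio of 1.104. DN103036_c0_g1 had 474, 502 and 482 CPM in the erect libraries, against 507, 439 and 421 CPM in the prostrate libraries. Its level was steadier among the erect libraries (ratio 1.06) than among the prostrate libraries (ratio 1.205). DN98292_c0_g1 showed the same order, with 443, 474 and 483 CPM in the erect libraries and 424, 498 and 399 CPM in the prostrate libraries. In DN102043_c0_g1, with 421, 425 and 415 CPM in the erect libraries and 391, 410 and 455 CPM in the prostrate libraries, the prostrate libraries lay on both sides of the erect ones.

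At the low end, DN101353_c0_g1 had 58.9, 57.6 and 55.2 CPM in the erect libraries and 57.0, 50.5 and 57.2 CPM in the prostrate libraries, and only prostrate replicate 2 was outside the range of the erect libraries. DN100885_c0_g4 had 53.3, 60.0 and 55.4 CPM in the erect libraries and 62.8, 62.1 and 50.8 CPM in the prostrate libraries. DN100481_c0_g1 had 52.1, 51.3 and 62.7 CPM in the erect libraries and 56.2, 58.5 and 56.2 CPM in the prostrate libraries, so that its extremes were both in erect shoots. The 197 unigenes lay in 196 Trinity components, which collect transcripts with sequence in common. The component with a pair of stable unigenes was DN105970_c0. DN105970_c0_g1 had 107, 123 and 107 CPM in the erect libraries and 101, 112 and 126 CPM in the prostrate libraries. DN105970_c0_g2 had 140, 129 and 128 CPM in the erect libraries and 126, 131 and 116 CPM in the prostrate libraries. As they share a component, reads may have been divided between them, and both values are uncertain.

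The summed share of counts in stable unigenes was 2.71% ± 0.0223 in the erect shoots and 2.68% ± 0.0479 in the prostrate shoots (SD, n = 3 each). By library these shares were 2.69, 2.73 and 2.70% in erect replicates 1, 2 and 3 and 2.63, 2.73 and 2.69% in prostrate replicates 1, 2 and 3. Prostrate replicate 1 stood lowest. There the median deviation of the stable unigenes from their own means was -3.82%, 58 of the 197 lay above their means, and 62 had their lowest value. The median deviations in the other libraries were between -0.74% in erect replicate 1 and 1.77% in prostrate replicate 2. The others of the same levels had a similar median in prostrate replicate 1, -3.88%, and one of -4.67% in prostrate replicate 3. With TMM scaling, described below, the order of the libraries changed for the stable unigenes. Their medians were then -4.76% in erect replicate 1, -1.51% in prostrate replicate 1 and 8.62% in prostrate replicate 2. The highest value fell in prostrate replicate 2 for 49 unigenes, in prostrate replicate 3 for 42 and in prostrate replicate 1 for 15, and in erect replicates 1, 2 and 3 for 28, 30 and 33.

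**Figure D2:**
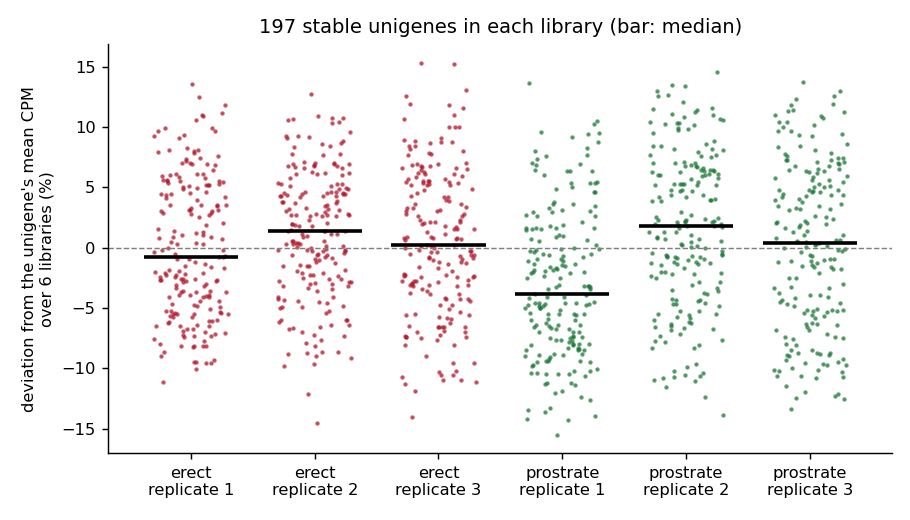
Deviation of each of the 197 stable unigenes from its own mean CPM over the 6 libraries (vertical axis, percent) in each library (horizontal axis, erect in red and prostrate in green), with a bar at the median. On library totals the median is lowest in prostrate replicate 1, at -3.82%, and lies between -0.74 and 1.77% in the other libraries.

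Within each type of shoot the range was a little narrower in the erect shoots. The median ratio of highest to lowest CPM was 1.11 among the 3 erect libraries and 1.13 among the 3 prostrate libraries. The prostrate range was the wider one in 124 of the 197 stable unigenes (62.9%), and in 2331 of the 2923 others of the same levels (79.7%), whose medians were 1.19 within the erect shoots and 1.45 within the prostrate shoots. For each pair of libraries the spread of the log2 ratio over the stable unigenes was also computed, which is free of any shift that all unigenes of a library share. Its SD ranged over 0.107 to 0.131 within the erect shoots, over 0.133 to 0.154 within the prostrate shoots and over 0.134 to 0.147 across them. The rule limits all of these spreads, so nothing is read from their order. In the 2923 others the mean SD was 0.311 within the erect shoots, 0.553 within the prostrate shoots and 0.666 across them.

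The spread of the stable unigenes over the libraries, which the rule used, is given here beside counting noise as a description. The CV, the SD over the 6 libraries relative to the mean, was between 2.52 and 10.2% with a median of 6.84%, while the counts alone would give a median of 2.31%. The median CV left after removing counting noise was 6.34%. A chi-square per degree of freedom, which is near 1 where libraries differ by sampling alone, was between 1.146 and 58.6 with a median of 8.73. It was under 3 in 12 unigenes and above 20 in 19. DN103310_c1_g1 had the lowest value (1.146), with a CV of 2.52% against 2.38% for counting noise, and DN98157_c0_g1 had 1.49, with a CV of 3.67% against 2.97%. In contrast, DN98292_c0_g1 had 54.6, as its CV of 8.39% stood against 1.12% for its large counts. For the other unigenes of the same levels the median CV was 20.7% at a median counting noise of 2.12%.

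**Figure D3:**
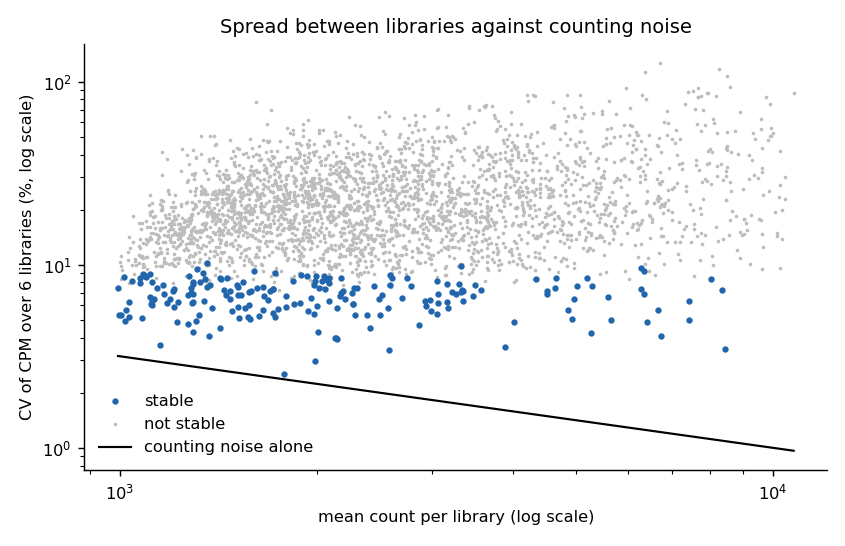
CV of the CPM over the 6 libraries (vertical axis, percent, log scale) against the mean count per library (horizontal axis, log scale) for the 197 stable unigenes (blue) and the 2923 others of the same levels (grey), with a line for counting noise alone. The stable unigenes lie between 2.52 and 10.2% and counting noise was above the observed spread in 0 of them.

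The contrast of erect with prostrate shoots was fitted over all 23275 unigenes that passed the filter on low counts, all 197 stable unigenes included, with edgeR's quasi-likelihood test and Benjamini-Hochberg adjustment. Log2 fold changes are positive where the erect shoots were higher. A DEG, or differentially expressed gene, passed 0.05 after adjustment with a log2 fold change beyond 1 in either direction. Among the stable unigenes 0 were DEGs and 0 had an adjusted p under 0.05, where 13.2 and 15.1% of all unigenes tested did, which the rule itself fixes. An unadjusted p under 0.05 was found for 1 stable unigene by edgeR, against 29.3% of all tested, for 1 by limma-voom and for 0 by DESeq2, and both of these programs also gave 0 at the adjusted threshold. The standard errors of the log2 fold changes were between 0.15 and 0.18. As edgeR shares information on spread across all unigenes, these errors and p-values are not the spread of each unigene alone. The biological CV that edgeR assigned to the stable unigenes was between 0.183 and 0.209, above their own CV of 2.52 to 10.2%. The shoots did not overlap in 31 of the 197 stable unigenes and in 1014 of the 2923 others of the same levels, beside 36.7% of all tested. Every erect library was higher than every prostrate library in 20 of the 197, beside 23.2% of all tested, and the opposite held for 11, beside 13.5%. The rule limits how far apart the shoots can lie, so nothing is read from these counts.

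The direction of the small differences that remained depended on how the libraries were scaled. On library totals, which the rule used, the median log2 fold change was 0.02 and 111 of the 197 values were above 0. With TMM scaling, which sets the bulk of unigenes level between libraries, the median was -0.09 and 28 were above 0, as the factors were between 1.03 and 1.04 in the erect libraries and between 0.935 and 0.979 in the prostrate libraries. The median of all 23275 unigenes was 0.10 on totals and -0.01 under TMM, a shift of -0.11. The 2923 others of the same levels had a median of -0.01 on totals and of -0.12 under TMM.

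**Figure D4:**
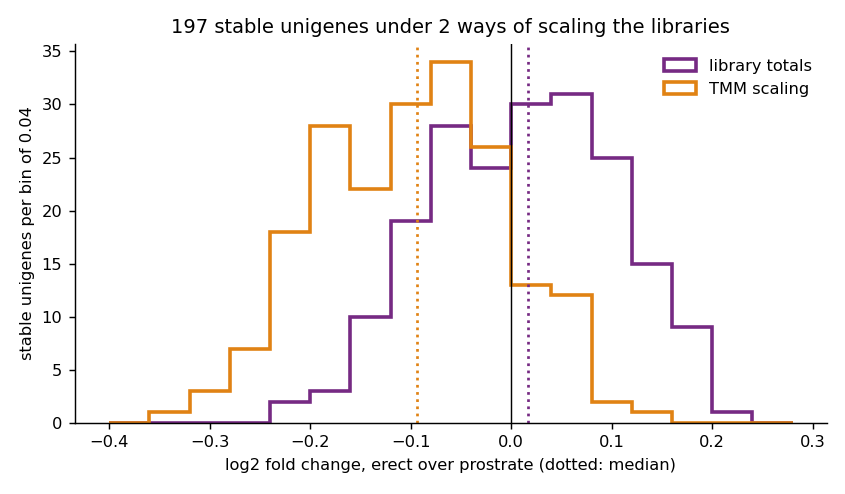
Number of stable unigenes (vertical axis, bins of 0.04) by log2 fold change of erect over prostrate shoots (horizontal axis), with libraries scaled by their totals (purple) or by TMM (orange). The dotted lines mark the medians of 0.02 on totals and -0.09 under TMM, and the median of all 23275 unigenes tested differs by -0.11 between them.

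The unigenes at the ends of this range show what the rule still admits. DN102131_c0_g3 had 84.6, 84.4 and 81.8 CPM in the erect libraries and 96.9, 96.9 and 102 CPM in the prostrate libraries, so that the shoots did not overlap. Its log2 fold change was -0.35 with TMM (standard error 0.147) and -0.24 on totals. DN103362_c0_g1 had 147, 149 and 139 CPM in the erect libraries, against 172, 158 and 170 CPM in the prostrate libraries (log2 fold change -0.31 with TMM, standard error 0.149). At the other end, DN99600_c3_g1 had 201, 204 and 199 CPM in the erect libraries, all above the 164, 165 and 185 CPM of the prostrate libraries. Its log2 fold change was 0.12 with TMM (standard error 0.153) and 0.23 on totals. DN103978_c0_g1 had 185, 183 and 181 CPM in the erect libraries and 166, 150 and 163 CPM in the prostrate libraries, again without overlap (log2 fold change 0.09 with TMM and 0.20 on totals).

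Membership also moved with the scaling. Of the 197 unigenes, 116 kept within the limit when CPM was computed from TMM-scaled totals, which lost 81 and brought in 71 others. The 81 that were lost had a median log2 fold change of -0.16 under TMM, and the 116 that stayed had one of -0.05. With DESeq2 size factors 65 of the 197 remained, and with upper-quartile scaling 103. There were 63 unigenes that met the rule under all 4 scalings, with a median mean CPM of 114. They included DN103310_c1_g1, DN106094_c6_g1, DN98157_c0_g1, DN105423_c0_g1, DN104720_c0_g1 and DN98967_c0_g1. DN98157_c0_g1 had a ratio of 1.09 on totals and 1.09 under TMM, and no other of the 197 was as low on both. DN98530_c0_g1, although among the 6 smallest ratios on totals, was not among the 63 and had a ratio of 1.22 under TMM.

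A measure that no scaling of libraries can change is the ratio between unigenes of the same library. The geNorm M of a unigene is the mean SD, over the 6 libraries, of its log2 ratio to each other stable unigene, and a low M means that it keeps step with the others. M was between 0.104 and 0.168, with a median of 0.132. The rule limits the range of every stable unigene and so keeps M low, and nothing is read from its size. The lowest values, all 0.104, were those of DN104924_c0_g1, DN104809_c0_g1 and DN104720_c0_g1. DN104924_c0_g1 had 131, 140 and 139 CPM in the erect libraries and 128, 145 and 135 CPM in the prostrate libraries. DN104809_c0_g1 had 75.03, 71.7 and 72.7 CPM in the erect libraries and 67.2, 75.7 and 74.7 CPM in the prostrate libraries. Both shared the low value of prostrate replicate 1 and the high value of prostrate replicate 2 with the medians of the set. Their ratios were 1.13 and 1.13, larger than that of DN103310_c1_g1, whose M was 0.108. Set against all 3257 unigenes with at least 50 CPM in each library, the median M of the stable unigenes was 0.365. The geometric mean of all 197 was between 116 and 118 CPM in the erect libraries and between 113 and 118 CPM in the prostrate libraries, a ratio of 1.05 between its highest and lowest library. For the panel of the 3 lowest M this ratio was 1.099, and for the panel of the 3 smallest single ratios it was 1.05. The rule limits these panel ratios too.

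Libraries that took no part in a choice give a reading the rule did not use. When the same rule was applied to 5 libraries, the level in the sixth could be compared with the mean of those 5. Without erect replicate 2 the rule took 230 unigenes, and the 5th and 95th percentiles of their level in erect replicate 2 were 0.889 and 1.17 times that mean. For erect replicates 1 and 3 these percentiles were 0.807 and 1.19 (276 unigenes) and 0.793 and 1.19 (260 unigenes). In the prostrate libraries the range was wider. The percentiles were 0.736 and 1.18 in prostrate replicate 1 (316 unigenes) and 0.713 and 1.36 in prostrate replicate 2 (362 unigenes). Prostrate replicate 3 departed most, with percentiles of 0.539 and 1.65 for 592 unigenes, of which 197 (33.3%) met the rule once it was included. In the other libraries between 54.4 and 85.7% of the unigenes still met the rule with the library that had been left out.

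The Trinity component, which the rule did not use, was examined next. Among the stable unigenes 84 (42.6%) were the only unigene of their component, and among the 2923 others of the same levels 1238 (42.4%) were. Estimated counts that are not whole can arise where a read is shared among transcripts. All 197 stable unigenes had such values in at least 1 library and 189 (95.9%) had them in all 6, against 90.6% of the others of the same levels. The 113 stable unigenes that were not alone shared their components with 216 other unigenes. The stable unigene held a median of 87.5% of the CPM of its component, over 90% in 52 components and under 50% in 17. When the CPM of all unigenes of a component were summed, 77 of these 113 stayed within the limit, while 9 had a ratio of at least 1.5.

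Of the 216 component neighbours 150 were tested, and 14 (9.33%) had an adjusted p under 0.05 and 12 (8%) were DEGs, beside the 15.1 and 13.2% of all unigenes given above. Their median absolute log2 fold change was 0.35, against 0.49 in all tested unigenes. The 12 DEGs stood beside 12 different stable unigenes, and 9 of them were higher in the erect shoots and 3 in the prostrate shoots. The following pairs were picked after their values were seen. DN104815_c0_g1, the neighbour of the stable DN104815_c0_g3, had 143, 168 and 118 CPM in the erect libraries and 4.01, 4.46 and 4.61 CPM in the prostrate libraries (edgeR log2 fold change 4.92 with standard error 0.220 and adjusted p = 3.32e-05). DN104815_c0_g3 itself had 66.1, 70.8 and 74.3 CPM in the erect libraries and 77.7, 71.6 and 77.9 CPM in the prostrate libraries. The stable unigene was thus almost level while its neighbour rose, and the sum over the component had a ratio of 3.11.

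DN104950_c0_g3, the neighbour of the stable DN104950_c0_g1, had 1329, 639 and 376 counts in the erect libraries and 0 in each prostrate library. Against a floor of 3 counts summed over the prostrate shoots, it was at least 687-fold higher in the erect shoots (adjusted p = 0.00143 from edgeR). This bound is for counting error alone and leaves out the spread among the erect libraries. DN104950_c0_g1 had 128, 123 and 130 CPM in the erect libraries and 121, 148 and 133 CPM in the prostrate libraries. DN104720_c0_g1, which had a low M and a small ratio, also had a neighbour that was a DEG. DN104720_c0_g2 had 63.5, 71.4 and 72.2 CPM in the erect libraries and 30.9, 31.3 and 23.9 CPM in the prostrate libraries (edgeR log2 fold change 1.154 with standard error 0.187 and adjusted p = 0.00663). DN99039_c0_g2, next to the stable DN99039_c0_g1, varied without a call, with 80.1, 135 and 272 CPM in the erect libraries and 337, 787 and 198 CPM in the prostrate libraries (adjusted p = 0.133 from edgeR). Its component had the largest ratio of summed CPM, 3.92, although DN99039_c0_g1 kept between 154 and 180 CPM. Reads that match both members of such a pair could have been divided in either way by the counting.

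None of the 18 unigenes printed in the text of the paper was stable. Of these, 3 had at least 50 CPM in each library, and the lowest ratio was 1.29, in DN102464_c4_g1, an *SPL* unigene. DN100885_c0_g4, at the floor of the stable set, shared its component with a very abundant unigene. Its neighbour DN100885_c0_g1 was among the 150 most abundant. DN100885_c0_g1 had 1564, 1701 and 1719 CPM in the erect libraries and 1728, 1862 and 1622 CPM in the prostrate libraries, a ratio of 1.19.

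The RT-qPCR targets of the study were then expressed relative to the stable unigenes. The value is the log2 of the target's RNA-seq count over the geometric mean count of all 197. None of these targets was a stable unigene. For each target with counts in all libraries the erect and prostrate libraries did not overlap, beside 36.7% of all unigenes tested. The two-sided exact permutation test gave p = 0.1 for each of 8 targets. That is the smallest p that 3 libraries against 3 allow, so no adjustment could bring it under 0.05. The targets came from a study of these same libraries, so the test is not independent of their choice. In the edgeR fit the adjusted p was 0.205 for DN100480_c3_g6 and 0.106 for DN100333_c1_g1, and at most 0.0131 for the others. The paper found neither of these *SPL* unigenes to differ significantly in RNA-seq. Its RT-qPCR, relative to actin, had both higher in the erect shoots, by larger folds than the RNA-seq folds given below. DN100480_c3_g6, an *SPL* of the miR156 clade, had -0.24 ± 0.12 in the erect shoots and -0.82 ± 0.37 in the prostrate shoots (SD, n = 3 each), a log2 fold of 0.58. With each stable unigene used singly as the reference, this log2 fold lay between 0.36 and 0.83, which is between 1.28-fold and 1.78-fold.

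DN100333_c1_g1, another *SPL* target, had a log2 fold of 0.78, with single references between 0.56 and 1.03. DN101273_c2_g1, an *SPL* outside the miR156 clade, had 1.77, DN101483_c0_g1, close to the auxin response factor *ARF2*, had 1.75, and DN100108_c0_g1, close to the boundary gene *CUC2*, had 3.39. The values were negative for DN104539_c0_g3 of the euAP2 clade (-2.00) and for DN101696_c0_g1, close to a thaumatin gene (-3.02). The *SPL* DN103335_c0_g1 had -4.49, from only 8, 5 and 7 counts in the erect libraries. The range over single references only repeats the fold changes of the stable unigenes themselves, which the rule keeps small, so it could not turn the sign of any of these targets and is no check of them. DN97881_c0_g2, close to *AGL67*, had 363, 333 and 259 counts in the erect libraries and 2, 0 and 0 counts in the prostrate libraries. Relative to the stable unigenes the ratio was 416, and its exact 95% Clopper-Pearson interval, for counting error alone, ran between 115 and 3437. In the paper's RT-qPCR the differences of DN97881_c0_g2 and DN103335_c0_g1 were not significant, and their folds were far smaller than these from RNA-seq.

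**Figure D5:**
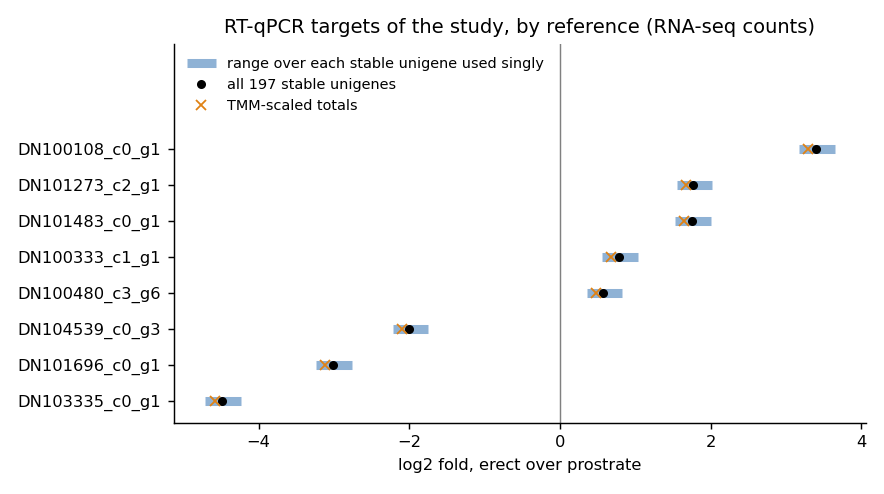
Log2 fold of erect over prostrate shoots (horizontal axis) for the 8 RT-qPCR targets with counts in all libraries (down the page), computed from RNA-seq counts relative to all 197 stable unigenes (black), to TMM-scaled totals (orange) and to each stable unigene singly (blue bar, lowest to highest). The bar of DN100480_c3_g6 runs from 0.36 to 0.83, and the width of each bar is the range of the stable unigenes' own fold changes, which the rule limits.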

How the data were processed

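Reads were assembled with Trinity by the authors, with the longest transcripts taken as unigenes. The deposited values are estimated counts for each library separately, without any normalization. The labels name Trimmomatic 0.36 and HISAT2 2.1.0, with no role, and what program counted the reads is not stated in the paper or labels. All columns matched a library by its label.

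Estimated counts were rounded, and CPM was computed from column totals. Members and lists were chosen with earlier results of these data known. The fit used edgeR 4.0.16 in R 4.3.3 (TMM, filterByExpr minimum count 10, minimum total 15, glmQLFTest), with limma-voom 3.58.1 and DESeq2 1.42.0 as alternatives. These fits, but not the choice of stable unigenes, were tested on simulated counts. Standard errors were derived from the fold change and the F statistic. Other alternatives changed the scaling, rounding, limits, filter, counting unit, the replicate number as a block, and each library left out.

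Unigenes named were the 6 with the smallest ratio, the 4 with the highest mean, the 3 lowest, the 3 nearest inside the limit, the 2 at each end of the log2 fold changes, the 3 with the lowest geNorm M, pairs in a component, those next to each threshold, and the RT-qPCR targets. Totals were between 15679144 and 20243960 counts. Counting noise of a stable unigene was at most 3.19%. Figures were drawn with matplotlib 3.10.9.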

Additional observations from a re-analysis of the deposited data

How the results depend on the processing

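The number of stable unigenes, 197, moved most with the limit on the ratio, being 105 at 1.2 and 996 at 1.5, and was 95 with a minimum of 100 CPM. With each library left out it was between 230 and 592, the higher values being 316, 362 and 592 without prostrate replicates 1, 2 and 3. It stayed within 1.5 times of 197 with TMM (187), DESeq2 (141) or upper-quartile scaling (199), a minimum of 20 CPM (293), counts not rounded (197), none of the most abundant left out (202) and counts summed over components (225). The median log2 fold change was -0.09 and changed sign to 0.017 with library totals. Under the other 12 alternatives it stayed between -0.15 and -0.07. The number of stable unigenes with an adjusted p under 0.05 was 0 in each of the 13 alternative fits, where between 1872 and 6455 of all unigenes tested passed. At an unadjusted p under 0.05 it was between 0 and 5, the highest without prostrate replicate 3. The rule itself keeps these counts low, so nothing is read from them. The median geNorm M was 0.132, and 0.365 relative to all unigenes with at least 50 CPM in each library. Its other 7 alternatives were between 0.126 and 0.134. The share alone in a component was 46.7% when only unigenes with at least 10 counts were counted.

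The replicate numbers were not treated as pairs in the main fit. Deviations of same-numbered erect and prostrate libraries had correlations of -0.31, -0.04 and -0.09 over 23275 unigenes, and no library correlated best with its own number. Deviations from the mean of each type of shoot depend on each other, so these correlations cannot show whether the subsamples were paired. With the replicate number as a block, the median log2 fold change of the stable unigenes was -0.09. In that fit 1872 of all tested unigenes had an adjusted p under 0.05, against 3511 without the block. The 0 calls among the stable unigenes in either fit are again set by the rule.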

Other observations

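Besides DN103436_c2_g1 and DN100885_c0_g1, the rule on the ratio was met by 3 others of the 150 most abundant unigenes. DN105537_c0_g2 had 734, 705 and 743 CPM in the erect libraries and 840, 818 and 703 CPM in the prostrate libraries. DN106379_c4_g1 had 914, 861 and 884 CPM in the erect libraries and 999, 1036 and 966 CPM in the prostrate libraries, without overlap. DN98577_c3_g1 had 661, 724 and 706 CPM in the erect libraries, all below the 753, 768 and 809 CPM of the prostrate libraries. DN106379_c4_g1 and DN98577_c3_g1 were named after their values were seen.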
